A study of Oryza sativa Japonica Group with 4 samples.

Results

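The genes described here are those of the rice anther that carry the tapetum, GAMYB or bHLH142 in their names. A search of the 35825 gene names of the deposited tables for these words found 10 genes, and all 10 are described. They are UDT1 (UNDEVELOPED TAPETUM 1), TIP2 (TDR INTERACTING PROTEIN2, also named bHLH142), TDR (TAPETUM DEGENERATION RETARDATION), EAT1 (ETERNAL TAPETUM 1, also named DELAYED TAPETUM DEGENERATION), PTC1 (Persistent Tapetal Cell1), GAMYB-LIKE 1, GAMYB-LIKE 2, MTR1 (MICROSPORE AND TAPETUM REGULATOR1), DTM1 (DEFECTIVE TAPETUM AND MEIOCYTES 1) and RTS (RICE TAPETUM SPECIFIC GENE). The first 7 are known as transcription regulators. MTR1, DTM1 and RTS are not transcription factors and were found because the tapetum is part of their names. GAMYB itself is listed under a different name, GIBBERELLIN MYB GENE, so the search did not find it, and its values are given beside the other 10 genes. The deposited tables hold no coordinates. From the gene identifiers on either side of each row, TIP2 and RTS lie on chromosome 1, TDR and MTR1 on chromosome 2, GAMYB-LIKE 2 on chromosome 3, EAT1 on chromosome 4, GAMYB-LIKE 1 on chromosome 6, UDT1 and DTM1 on chromosome 7, and PTC1 on chromosome 9.

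Anthers of 2 kinds of plant were compared at 2 stages. *SSTL-F* plants, the control of the labels, have fertile panicles, and *sstl-s* plants have sterile panicles. Both are segregants from the progeny of semi-sterile plants of a T-DNA insertion line in the variety Tainung 67, grown in a growth chamber, and sterility did not go together with the insertion in that line, so the mutated gene is not known and *SSTL-F* is not an unmutated parent. The stages were young microspore (YM), when microspores leave the tetrads, and late pollen mitosis (LpM). RNA of whole anthers gave 1 library for each of the 4 groups, so no difference below has a replicate check, no test was possible and no p-value is given. How many plants went into a library is not stated. Total counts were 10161675 to 11559430 per library, and a count of 3, taken as the smallest that can be shown, was 0.246 to 0.309 CPM, that is, counts per 1000000 of the normalized library total. Tapetal genes had reads in every library, which does not say how much of the tapetum was left at LpM. In anther sections, the authors saw no tapetum at LpM in *SSTL-F*, while part of it was still there in *sstl-s*. They also report that *sstl-s* anthers held almost no microspores, so the cells behind the libraries differed between the genotypes. The part of this in the levels below was not tested. The tapetal markers CYP703A3 and CYP704B2, which hydroxylate fatty acids for the pollen wall, were at 1411 to 4756 CPM, and none of OsC6, OsC4 and RAFTIN1 was at 0 in any library, while RTS had 0 reads in 3 of the 4.

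The tapetum is the innermost layer of the anther wall. It surrounds the developing microspores, supplies them with enzymes, sugars and lipids for the pollen wall, and then breaks down by programmed cell death. In rice its development is directed by a chain of basic helix-loop-helix (bHLH) factors. UDT1 acts early in tapetal differentiation, TIP2 and TDR bind each other and act at the next steps, and EAT1, which also binds TDR, drives the aspartic proteases of tapetal cell death. PTC1, a PHD-finger protein related to MALE STERILITY1 of *Arabidopsis*, acts late in the chain. GAMYB is a MYB factor that responds to gibberellin and is needed in the same tissue.

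Levels are given as CPM of reads counted on each gene, normalized over the 4 libraries by the TMM method. The genotype difference is the log2 ratio of *SSTL-F* to *sstl-s*, positive where *SSTL-F* was higher, and the stage change is the log2 ratio of LpM to YM. The ranges in brackets are 95% intervals of the split of a gene's reads between both libraries. They cover counting error only, not the difference between plants or RNA preparations. Of the 10 genes, 9 reached 10 counts in some library, as did 24543 of all genes, and RTS did not.

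The genes fell into a few groups by their levels. TIP2 and MTR1 were higher at YM than at LpM, and the drop was smaller in *sstl-s*. EAT1 and GAMYB-LIKE 2 were lower at YM than at LpM, with the higher LpM level in *SSTL-F*. TDR was highest in *SSTL-F* at YM, and PTC1 was higher in *SSTL-F* at both stages. GAMYB-LIKE 1 and DTM1 stayed within a narrow range, and UDT1 was low in all libraries and higher in *sstl-s* at LpM.

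**Figure D1:**
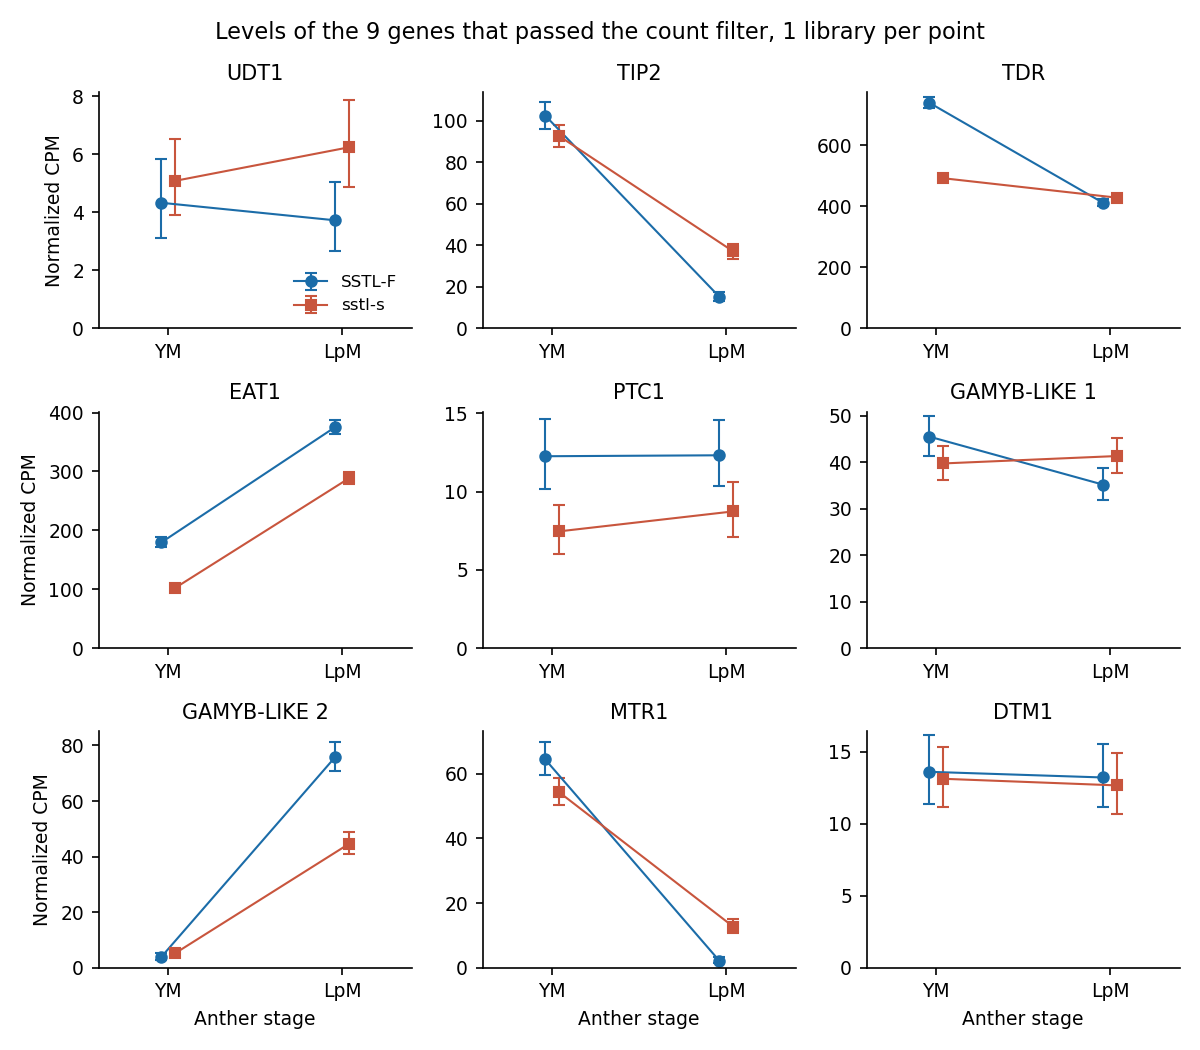
Normalized CPM (vertical axis, from 0) at the YM and LpM stages (horizontal axis) for 9 genes, with *SSTL-F* as circles and *sstl-s* as squares, 1 library per point. Bars are 95% exact Poisson intervals of the count. TIP2 and MTR1 drop from YM to LpM, EAT1 and GAMYB-LIKE 2 climb, and the *SSTL-F* line drops below the *sstl-s* line at LpM for TIP2 and MTR1.

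At YM, none of the 9 genes was 2-fold or more different between the genotypes, where 12.4% of all genes were. The 9 values ran from -0.41 for GAMYB-LIKE 2 to 0.81 for EAT1. Their median was 0.20, and the median of all genes was 0.03. For 6 genes the counting interval lay above 0, for none below 0, and for 3 it included 0. The number above 0 hung on the scaling and was 3 with library size only (TDR, EAT1 and PTC1) and 4 with DESeq2 size factors, where MTR1 joined them. Over all genes, the interval excluded 0 for 41.6%, and with as many reads as TDR or EAT1 had, the interval excludes 0 already at a small difference.

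At LpM, 2 of the 9 genes, MTR1 and TIP2, were 2-fold or more different, both higher in *sstl-s*. The share of all genes 2-fold or more different at LpM was 11.0%. The values of the 9 genes ran from -2.48 for MTR1 to 0.76 for GAMYB-LIKE 2, with a median of -0.06 beside a median of -0.01 over all genes. The interval lay above 0 for 3 genes and below 0 for 5, or for 4 without TDR under DESeq2 size factors, and it excluded 0 for 43.0% of all genes.

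**Figure D2:**
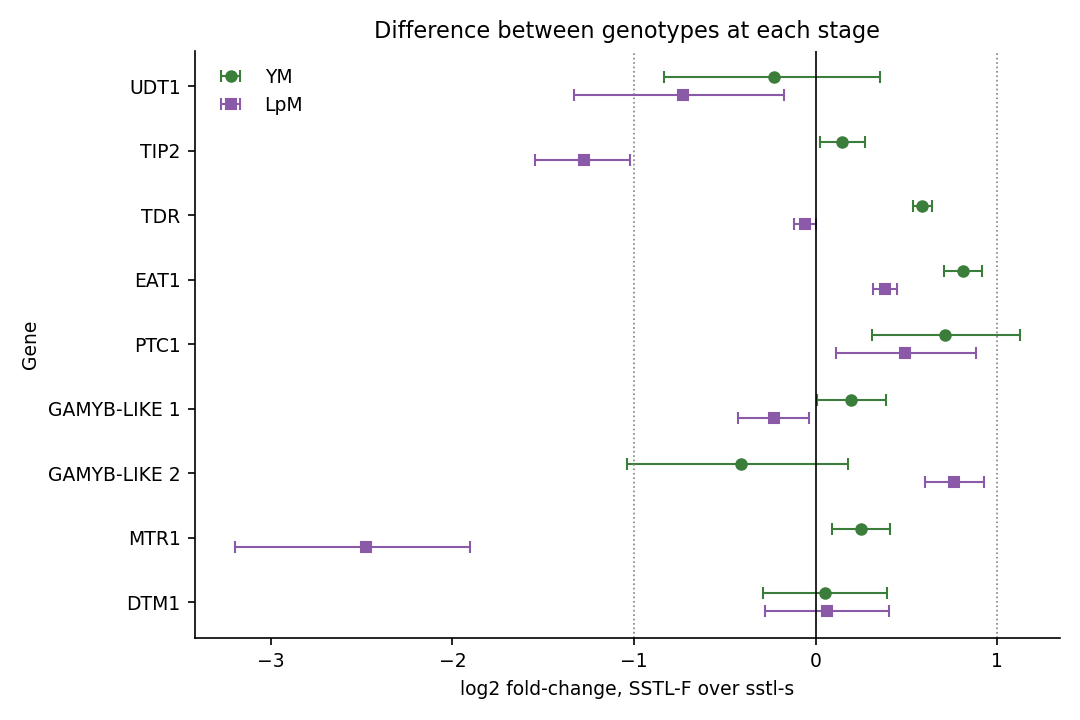
Log2 ratio of *SSTL-F* to *sstl-s* (horizontal axis) for 9 genes (vertical axis), at YM as circles and at LpM as squares. Bars are 95% counting intervals and dotted lines mark 2-fold. MTR1 and TIP2 at LpM are the points past 2-fold, at -2.48 and -1.28.

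Between the stages, 4 of the 9 genes were 2-fold or more different in *SSTL-F*, and 16.9% of all genes were. The same 4 genes, TIP2, MTR1, EAT1 and GAMYB-LIKE 2, were 2-fold or more different in *sstl-s*, where the share of all genes was 11.9%. TIP2 and MTR1 were lower at LpM and EAT1 and GAMYB-LIKE 2 higher in both genotypes. The counting interval of the stage change excluded 0 for 6 of the 9 genes in *SSTL-F* and for 5 of the 9 in *sstl-s*, against 49.1% and 38.7% of all genes. For 3 genes, TIP2, MTR1 and GAMYB-LIKE 2, the stage change in *SSTL-F* was also 2-fold or more away from the stage change in *sstl-s*, and 15.0% of all genes were. The genotype and stage comparisons are made from the same 4 libraries, so this difference of stage changes is also the change of the genotype difference from YM to LpM.

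**Figure D3:**
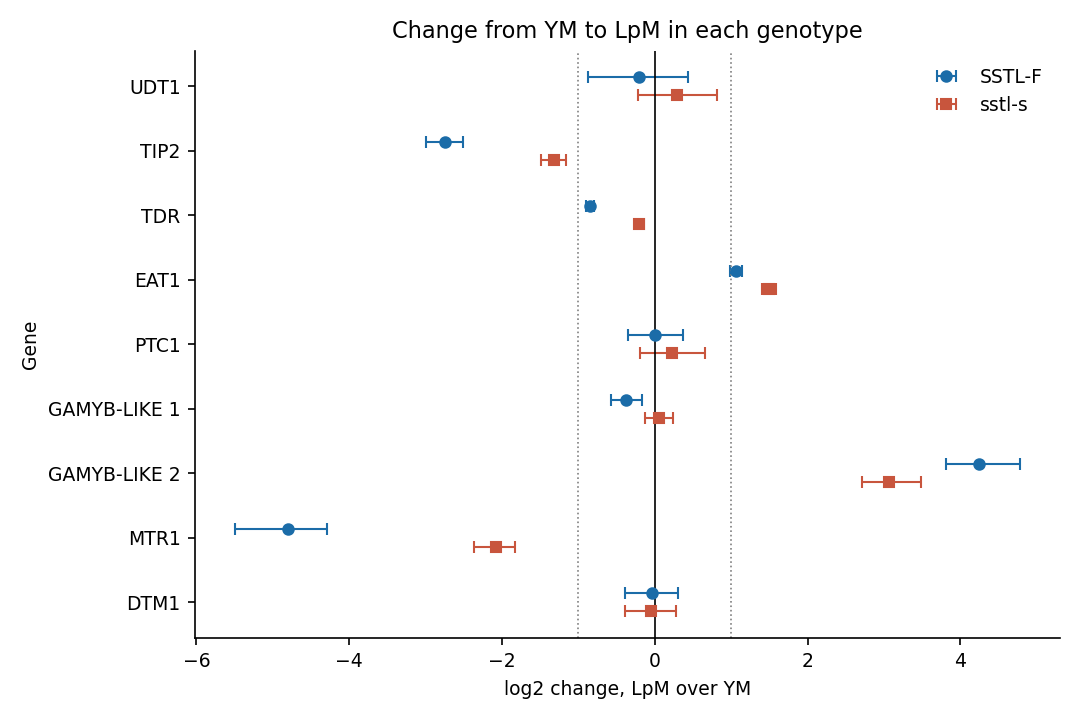
Log2 change from YM to LpM (horizontal axis) for 9 genes (vertical axis), in *SSTL-F* as circles and in *sstl-s* as squares. Bars are 95% counting intervals and dotted lines mark 2-fold. MTR1 and TIP2 lie to the left in both genotypes and farther left in *SSTL-F*, at -4.81 and -2.74, and GAMYB-LIKE 2 lies farthest to the right, at 4.25 in *SSTL-F*.

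UDT1, the earliest of the bHLH chain, was counted with few reads. UDT1 had 42 counts at YM and 42 at LpM in *SSTL-F*, and 62 and 70 in *sstl-s*, which is 4.33, 3.72, 5.08 and 6.24 CPM. Both *sstl-s* libraries were above both *SSTL-F* libraries. The genotype difference at YM was -0.23 (-0.83 to 0.36), and at LpM it was -0.73 (-1.33 to -0.17). The YM interval includes 0 and leaves room for a difference in either direction. The stage change was -0.21 (-0.87 to 0.44) in *SSTL-F* and 0.29 (-0.22 to 0.81) in *sstl-s*, and both intervals include 0.

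TIP2 (bHLH142) is the partner of TDR and acts upstream of EAT1. TIP2 had 994 counts at YM and 172 at LpM in *SSTL-F*, and 1129 and 416 in *sstl-s*, or 102, 15.2, 92.5 and 37.1 CPM. The genotypes were close at YM, and at LpM *sstl-s* held more than *SSTL-F*. The genotype difference at YM was 0.15 (0.02 to 0.27), and at LpM it was -1.28 (-1.55 to -1.02), a level 2.42-fold lower in *SSTL-F*. The YM value depended on the scaling and was -0.03 with the deposited RPKM values. At LpM, 6.67% of all genes had a difference at least this large in either direction. TIP2 was 6.68-fold lower at LpM than at YM in *SSTL-F*, a log2 change of -2.74 (-2.99 to -2.51), and 2.49-fold lower in *sstl-s*, a log2 change of -1.32 (-1.49 to -1.16). The difference of the stage changes, *SSTL-F* minus *sstl-s*, was -1.42 (-1.72 to -1.14) on the log2 scale.

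In RNA of whole anthers, fewer cells of a type and less RNA per cell cannot be told apart, here and for the genes below. Genes of meiotic cells were looked at beside TIP2. Meiosis comes before microspores leave the tetrads, so at YM and LpM these genes need not mark cells still in meiosis. All 9 matched meiotic genes had reads in every library. Summed, they were at 326 CPM at YM and 150.2 at LpM in *SSTL-F*, and at 414 and 246 CPM in *sstl-s*, the same order of stages as TIP2 in each genotype and, at LpM, of genotypes. The median genotype difference of these genes was -0.24 at YM. It was -0.59 at LpM, where all 9 were below 0, and the interval of 7 of them was as well, beside an interval that excluded 0 in either direction for 43.0% of all genes. The part of meiotic cells in the level of TIP2 was not tested.

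TDR is the central bHLH factor of tapetal breakdown and binds TIP2 and EAT1. Its counts were 7186 at YM and 4645 at LpM in *SSTL-F*, and 6010 and 4811 in *sstl-s*, or 740.3, 412, 493 and 429 CPM. The *SSTL-F* YM library stood above the other 3, which lay close to each other. The genotype difference at YM was 0.59 (0.54 to 0.64), and at LpM it was -0.059 (-0.12 to -0.00025). At YM, 25.4% of all genes differed by at least as much. From YM to LpM, TDR had a log2 change of -0.85 (-0.90 to -0.79) in *SSTL-F* and of -0.20 (-0.26 to -0.15) in *sstl-s*, so the stage change differed by -0.65 (-0.72 to -0.57) between the genotypes.

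EAT1, which acts after TDR and TIP2 and drives tapetal proteases, went the other way over the stages. EAT1 had 1742 counts at YM and 4237 at LpM in *SSTL-F*, and 1248 and 3239 in *sstl-s*, or 179, 376, 102 and 289 CPM. *SSTL-F* was above *sstl-s* at each stage, and both LpM libraries were above both YM libraries. The genotype difference at YM was 0.81 (0.71 to 0.92), and at LpM it was 0.38 (0.31 to 0.45), which is 1.75-fold and 1.30-fold. As many as 17.0% of all genes at YM and 41.1% at LpM differed by at least as much. The stage change was 1.06 (0.98 to 1.15) in *SSTL-F* and 1.496 (1.40 to 1.59) in *sstl-s*, and 15.7% and 5.38% of all genes had a stage change at least as large.

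PTC1, the PHD-finger regulator at the late end of the chain, was at a low level. PTC1 had 119 counts at YM and 139 at LpM in *SSTL-F*, and 91 and 98 in *sstl-s*, or 12.3, 12.3, 7.46 and 8.73 CPM. Both *SSTL-F* libraries were above both *sstl-s* libraries. For PTC1 the genotype difference was 0.71 (0.31 to 1.13) at YM, and at LpM it was 0.49 (0.11 to 0.88), or 1.64-fold and 1.41-fold. Between the stages PTC1 moved little in either genotype, with log2 changes of 0.01 (-0.36 to 0.37) in *SSTL-F* and 0.23 (-0.20 to 0.65) in *sstl-s*.

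GAMYB-LIKE 1 and GAMYB-LIKE 2 are MYB genes named for their likeness to GAMYB, and they had unlike patterns. GAMYB-LIKE 1 had 442 counts at YM and 397 at LpM in *SSTL-F*, and 485 and 464 in *sstl-s*, or 45.5, 35.2, 39.8 and 41.4 CPM. The highest library was only 1.29-fold above the lowest. For GAMYB-LIKE 1 the genotype difference was 0.20 (0.01 to 0.39) at YM, and at LpM it was -0.23 (-0.43 to -0.04), and 64.5% and 58.5% of all genes differed by at least as much.

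GAMYB-LIKE 2 had the second widest range of the 10 genes, after MTR1. This gene had 38 counts at YM and 856 at LpM in *SSTL-F*, and 64 and 501 in *sstl-s*, or 3.91, 75.9, 5.25 and 44.7 CPM. It was near the low end of the 10 genes at YM and well above it at LpM in both genotypes. With gene length taken into account, it was near the middle of all genes at YM, where 50.1% in *SSTL-F* and 47.7% in *sstl-s* were higher. The stage change was 4.25 (3.81 to 4.79) in *SSTL-F* and 3.07 (2.71 to 3.49), or 8.38-fold, in *sstl-s*. A stage change at least as large was found in 1.01% of all genes in *SSTL-F* and in 0.538% in *sstl-s*. Between the genotypes, the YM difference was -0.41 (-1.04 to 0.18) and the LpM difference 0.76 (0.60 to 0.93), where *SSTL-F* was 1.70-fold higher. The stage changes differed by 1.18 (0.56 to 1.83) on the log2 scale, and by 0.93, short of 2-fold, with the deposited RPKM values.

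GAMYB had 1544 counts at YM and 1803 at LpM in *SSTL-F*, and 1449 and 1550 in *sstl-s*, or 159, 160, 119 and 138 CPM. It was picked out after the names and counts had been read. *SSTL-F* was above *sstl-s* at both stages, by 0.42 (0.32 to 0.53) and 0.21 (0.11 to 0.31) on the log2 scale. GAMYB did not share the stage change of GAMYB-LIKE 2: its log2 change was 0.01 (-0.09 to 0.11) in *SSTL-F* and 0.22 (0.11 to 0.32) in *sstl-s*.

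MTR1 encodes a secreted fasciclin glycoprotein, made by male reproductive cells and needed by both the microspores and the tapetum. MTR1 had 625 counts at YM and 25 at LpM in *SSTL-F*, and 662 and 143 in *sstl-s*, or 64.4, 2.22, 54.3 and 12.7 CPM. At LpM little of it was left in *SSTL-F*, and more in *sstl-s*. For MTR1 the genotype difference was 0.25 (0.09 to 0.41) at YM, and at LpM it was -2.48 (-3.20 to -1.90), a level 5.57-fold lower in *SSTL-F*. A difference at least this large was found in 1.01% of all genes at LpM. The stage change was 28.0-fold in *SSTL-F*, a log2 change of -4.81 (-5.50 to -4.29), and 4.23-fold in *sstl-s*, a log2 change of -2.08 (-2.36 to -1.83). The stage changes differed by -2.72 (-3.47 to -2.13). The meiotic genes given beside TIP2 also had a higher summed level in *sstl-s* at LpM, and their part in the level of MTR1 was not tested.

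DTM1, a protein of the endoplasmic reticulum membrane that is needed for early tapetum and meiocyte development, was the steadiest of the 9 genes. Its level was 13.6 CPM at YM and 13.2 at LpM in *SSTL-F*, and 13.1 and 12.7 in *sstl-s*, from 132 to 160 counts. The highest library was 1.07-fold above the lowest. For DTM1 the genotype difference was 0.05 (-0.29 to 0.39) at YM, and at LpM it was 0.06 (-0.28 to 0.40), and both intervals include 0. RTS, a gene of the tapetum needed for fertility, had 2 reads in *sstl-s* YM and 0 in the other 3 libraries. All 4 counts are under the floor of 3, and no fold is given for it.

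Levels of different genes were compared within a library by TPM, which takes gene length into account. TDR led at YM in both genotypes, at 566 TPM in *SSTL-F* and 405 in *sstl-s*, where 0.391% and 0.720% of all genes were higher. In *SSTL-F* LpM, EAT1 at 325 TPM and TDR at 310 TPM were the highest, and their ratio of 1.05 (1.01 to 1.09) was close to 1. In *sstl-s* LpM, TDR was still above EAT1, at 334 and 258 TPM, a ratio of 1.29 (1.24 to 1.35).

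Below these genes came TIP2, at 104 and 101 TPM in the YM libraries of *SSTL-F* and *sstl-s*, and GAMYB-LIKE 1 at 42.9 to 56.5 TPM in the 4 libraries. TIP2 and EAT1 could not be put in order in *sstl-s* YM, where the ratio was 1.05 (0.967 to 1.14). GAMYB-LIKE 1 and MTR1 could not be put in order at YM, with ratios of 1.07 (0.941 to 1.20) in *SSTL-F* and 1.10 (0.979 to 1.24) in *sstl-s*. PTC1 and DTM1 lay between 18.0 and 27.5 TPM in every library, and only in *SSTL-F* LpM did their ratio of 1.27 (1.003 to 1.62) exclude 1. UDT1 was at 7.40 to 12.8 TPM, and in *sstl-s* LpM it could not be put in order with MTR1, with a ratio of 1.20 (0.889 to 1.61). The factors of 1 chain thus spanned a wide range, from UDT1 to TDR, and the ratio of UDT1 to TDR was 0.0155 (0.0111 to 0.0209) in *SSTL-F* YM and 0.0385 (0.0299 to 0.0487) in *sstl-s* LpM.

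Ratios between genes of 1 library do not depend on how the libraries were scaled. The ratio of EAT1 to TDR in TPM was 0.279 (0.264 to 0.294) in *SSTL-F* YM and 1.05 (1.01 to 1.09) in *SSTL-F* LpM. It was 0.239 (0.224 to 0.254) in *sstl-s* YM and 0.774 (0.740 to 0.809) in *sstl-s* LpM. In each genotype EAT1 gained on TDR from YM to LpM, and at each stage the ratio was lower in *sstl-s*.

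The ratio of TIP2 to TDR went down with the stage and was higher in *sstl-s*. In *SSTL-F* it fell from 0.184 (0.172 to 0.197) to 0.0493 (0.0421 to 0.0575), and in *sstl-s* from 0.2504 (0.235 to 0.267) to 0.115 (0.104 to 0.127). EAT1 over TIP2 went the other way, from 1.51 (1.40 to 1.64) to 21.2 (18.2 to 24.9) in *SSTL-F* and from 0.953 (0.879 to 1.03) to 6.71 (6.06 to 7.45) in *sstl-s*. Among the 4 libraries, *SSTL-F* LpM thus had by far the most EAT1 for its TIP2. GAMYB-LIKE 2 passed GAMYB-LIKE 1 in *SSTL-F* LpM, with a ratio of 1.75 (1.55 to 1.97), and not in *sstl-s* LpM, with a ratio of 0.875 (0.770 to 0.995).

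**Figure D4:**
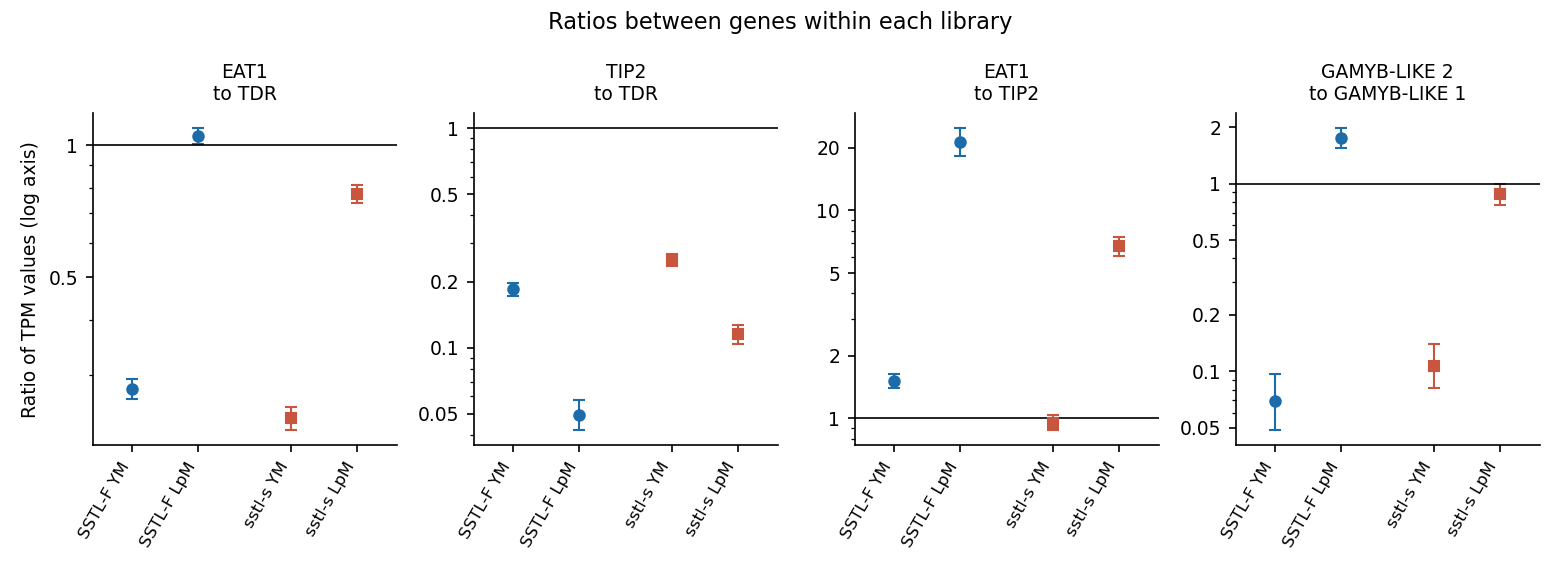
Ratio of the TPM values of 2 genes within each library (vertical axis, log scale) for 4 pairs of genes, with *SSTL-F* as circles and *sstl-s* as squares. Bars are 95% counting intervals and the line marks a ratio of 1. EAT1 to TIP2 runs from 0.953 in *sstl-s* YM to 21.2 in *SSTL-F* LpM.

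Likeness of pattern was measured as the root-mean-square (RMS) difference of the log2 CPM over the 4 libraries, after the mean of each gene was taken off. It is a description over 4 libraries. TIP2 and MTR1 had a Pearson correlation of 0.999 over the 4 log2 levels, while their RMS difference was 0.83, since MTR1 moved over a wider range. EAT1 and GAMYB-LIKE 2 had a correlation of 0.88 and an RMS difference of 1.27. The smallest RMS difference among the genes was 0.13, for GAMYB-LIKE 1 and DTM1, both nearly flat.

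Among all named genes that reached 50 counts in some library, those nearest to TIP2 were NEUTRAL/ALKALINE INVERTASE 5 and F-box protein 423, both at an RMS difference of 0.10, and the DNA repair protein RAD51A at 0.13. Of 18876 genes, named or not, 0.207% were within 0.25 of TIP2. This share also depends on the size of the change, and MTR1, with a correlation of 0.999 to TIP2, lay 0.83 away. The nearest to MTR1 were protein phosphatase 2C42 at 0.15, F-box protein 673 and Os_F0663 at 0.23. The nearest to GAMYB-LIKE 2 were Chalk5, MATH-BTB protein 34 and F-box protein 235, the last at 0.27. No distance is given for F-box protein 673, with 1 count in *SSTL-F* LpM, or for Chalk5 and MATH-BTB protein 34, with 2 counts each in *SSTL-F* YM, since these counts are under the floor of 3.

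EAT1 was nearest to BCL-2-ASSOCIATED ATHANOGENE 5 at 0.07 and to trichome birefringence-like 4 and SUCROSE SYNTHASE 2, both at 0.08, with 1.15% of genes within 0.25. TDR was nearest to N-acetylglucosaminyltransferase I at 0.05 and to H+-ATPASE 8 and BETA-GLUCOSIDASE 19, both at 0.06. For PTC1 the nearest were R2R3-MYB_18 at 0.02, F-box protein 495 at 0.03 and SERINE CARBOXYPEPTIDASE 23 at 0.03. For TDR and PTC1, which changed less over the 4 libraries, 17.1% of genes were within 0.25 of each.

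The flatter genes had still more neighbours. UDT1 was nearest to dynamin-related protein 1C, Nucleolar protein family A member 2 and OsWD40-175, each at 0.03, with 21.4% of genes within 0.25. GAMYB-LIKE 1 was nearest to XPF, voltage-dependent anion channel 2 and OsSTA99, and DTM1 to F-box protein 330, RNA helicase 37 and ARGONAUTE 17, each at 0.01. For these last 2 genes, 54.6% and 59.3% of all genes were within 0.25.

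Around the regulators, 4 lists of genes were followed. The first holds genes of anther wall cell fate, upstream of the chain, together with DEX1, a gene of exine patterning, and 5 of its 6 genes were matched. At YM, 1 of the 5, MIL1, was 2-fold or more different, against 12.4% of all genes. MIL1 passed the count filter only through *sstl-s* YM, the library where it was highest. The median genotype difference of the 5 was 0.06 at YM and -0.11 at LpM. MSP1, the receptor kinase that limits the number of spore mother cells, had 2514 counts at YM and 2725 at LpM in *SSTL-F*, and 2621 and 2249 in *sstl-s*, with a genotype difference of 0.27 (0.19 to 0.35) at both stages. MIL1, a glutaredoxin needed for microspore formation, had 12 counts in *sstl-s* YM, 3 in *sstl-s* LpM and 0 in both *SSTL-F* libraries. Against a floor of 3 counts in *SSTL-F* YM, it was 3.18-fold lower there. The counting interval of its log2 ratio at YM reached up to -1.14, which is a smaller difference. Its stage change in *sstl-s* was -1.59 (-4.34 to 0.01). DEX1, a calcium-binding protein of exine patterning, was at the upper end of the list at YM, at 0.29 (0.19 to 0.40), and OsMADS3, an AGAMOUS-type floral factor, had -0.35 (-0.43 to -0.27) at LpM.

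Gibberellin perception acts on GAMYB through the receptor GID1, the F-box protein GID2 and the repressor SLR1, and these 3 genes made the second list. None of them was 2-fold or more different in any comparison. The genotype differences ran from -0.34 for GID1 to 0.20 for SLR1 at YM and from 0.04 for SLR1 to 0.12 for GID1 at LpM. The stage changes ran from -0.12 for GID2 to 0.24 for SLR1 in *SSTL-F* and from -0.24 for GID1 to 0.40 for SLR1 in *sstl-s*.

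The third list, of genes for pollen wall and tapetal lipids, holds known targets and downstream genes of TDR, GAMYB and PTC1, and 14 of 15 were matched. At YM, 8 of the 14 were 2-fold or more different, 6 higher and 2 lower in *SSTL-F*, against 12.4% of all genes. Their median was 0.94, above the 0.20 of the 9 genes found by name and the 0.03 of all genes. NP1 and CYP703A3, both in this list, had been reported by the authors from these same libraries as higher in *SSTL-F* at YM. The count and the median are thus not independent of that earlier result. The 14 include a MYB gene, MYB80, at 0.83 (0.65 to 1.02) at YM. At LpM, 2 of the 14 were 2-fold or more different, both higher in *SSTL-F*, a share near the 11.0% of all genes, and the median was 0.44. Summed, the 14 genes were at 19471 CPM at YM and 25398 at LpM in *SSTL-F*, and at 9645 and 19769 CPM in *sstl-s*. By this sum, *sstl-s* YM was the low library, as it was for EAT1 and GAMYB, while OsC6 and OsC4 were lowest in *SSTL-F* YM.

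The 6 lipid genes 2-fold or more higher in *SSTL-F* at YM were NP1, TKPR1, RAFTIN1, CYP703A3, ABCG15 and GPAT3. NP1, an oxidoreductase of exine formation, had 14296 counts in the *SSTL-F* library of this stage and 5463 in that of *sstl-s*, a difference of 1.72 (1.67 to 1.76). TKPR1, a reductase of sporopollenin synthesis, had 39784 and 18441 counts, a difference of 1.44 (1.41 to 1.46). RAFTIN1, which coats the orbicules of the tapetum, had 1.31 (1.16 to 1.47). The P450 enzyme CYP703A3 had 1.17 (1.15 to 1.20), the lipid transporter ABCG15 1.14 (1.08 to 1.19), and the acyltransferase GPAT3 1.14 (0.55 to 1.79) from 64 and 36 counts. PKS1, a polyketide synthase of sporopollenin, was just short of 2-fold, at 0.99 (0.96 to 1.01). TDR, whose known targets include CYP703A3, had 0.59 at the same stage.

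The lipid transfer proteins OsC6 and OsC4 went against the rest of the list at YM. OsC6, a known target of TDR, had 92 counts at YM and 26113 at LpM in *SSTL-F*, and 288 and 7950 in *sstl-s*. It was lower in *SSTL-F* at YM, at -1.31 (-1.67 to -0.97), and higher at LpM, at 1.71 (1.67 to 1.74). OsC4 had 1635, 18752, 4263 and 10045 counts in the same order, with -1.05 (-1.14 to -0.97) at YM and 0.89 (0.86 to 0.93) at LpM. Both had a larger stage change in *SSTL-F*, of 7.92 (7.64 to 8.24) and 3.30 (3.23 to 3.38), than in *sstl-s*, of 4.90 (4.74 to 5.08) and 1.36 (1.31 to 1.41). At LpM the other gene past 2-fold was RAFTIN1, at 1.21 (1.14 to 1.28), and the lowest value was that of the transporter ABCG26, at -0.90 (-0.98 to -0.82).

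Between the stages, 6 of the 14 lipid genes were 2-fold or more different in *SSTL-F*, 4 higher and 2 lower at LpM, and 7 of the 14 in *sstl-s*, all higher at LpM. The shares of all genes were 16.9% and 11.9%. In *SSTL-F* these were OsC6, OsC4, RAFTIN1 at 2.34 (2.24 to 2.44) and the reductase DPW at 1.05 (1.03 to 1.08), and, lower at LpM, TKPR1 at -1.11 (-1.14 to -1.09) and ABCG26 at -1.64 (-1.72 to -1.57). In *sstl-s* they were OsC6, OsC4, RAFTIN1 at 2.45 (2.31 to 2.59), DPW at 1.71 (1.68 to 1.74), ABCG15 at 1.24 (1.18 to 1.29), CYP704B2 at 1.19 (1.17 to 1.22) and PKS1 at 1.08 (1.06 to 1.10), and the lowest value there was that of ABCG26, at -0.48 (-0.54 to -0.42). Of the lipid genes past 2-fold, EAT1 shared its direction of stage change with those that were higher at LpM. TDR shared its direction with TKPR1 in *SSTL-F* and with ABCG26 in both genotypes, though ABCG26 was short of 2-fold in *sstl-s*. Short of 2-fold, CYP703A3 and NP1 were also lower at LpM in *SSTL-F*, at -0.28 (-0.30 to -0.25) and -0.59 (-0.63 to -0.55). So was MYB80, at -0.65 (-0.83 to -0.47). In *sstl-s*, where TDR was lower at LpM, CYP703A3 and NP1 were higher, at 0.87 (0.84 to 0.89) and 0.64 (0.59 to 0.69). MYB80 had -0.02 (-0.23 to 0.18) there.

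The fourth list holds 3 tapetal proteases and API5, a gene of cell death, and all 4 were matched. API5 is listed as APOPTOSIS INHIBITOR 5, a name that does not give its role in the tapetum. AP37 and AP25 are aspartic proteases driven by EAT1. The deposited name of AP37 also reads E. coli cation transport protein ChaC homolog. AP37 had 1272 counts at YM and 2234 at LpM in *SSTL-F*, and 268 and 1979 in *sstl-s*, or 131, 198, 22.0 and 176 CPM. The *sstl-s* YM library stood far below the other 3, and the genotype difference was 2.57 (2.39 to 2.77) at YM against 0.17 (0.08 to 0.25) at LpM. EAT1 was also lowest in *sstl-s* YM, by a smaller margin.

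AP25 did not follow AP37. AP25 had 1890 counts at YM and 18125 at LpM in *SSTL-F*, and 3568 and 10780 in *sstl-s*, and differed between the genotypes by -0.59 (-0.67 to -0.51) at YM and by 0.74 (0.71 to 0.78) at LpM. Its order of libraries was that of OsC6 and OsC4. GAMYB-LIKE 2 had the same order at LpM and could not be put in order at YM. The cysteine protease CP1, a known target of TDR, had 31 counts at YM and 278 at LpM in *SSTL-F*, and 45 and 185 in *sstl-s*. It was also highest in *SSTL-F* LpM, and at YM the genotypes could not be put in order, at -0.20 (-0.92 to 0.48).

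At LpM the 4 genes of this list ran from 0.17 for AP37 to 0.74 for AP25 and none was past 2-fold. The stage changes of AP25 were 3.04 (2.98 to 3.11) in *SSTL-F* and 1.72 (1.66 to 1.77) in *sstl-s*, those of CP1 2.91 (2.41 to 3.53) and 2.13 (1.68 to 2.66), and that of AP37 was 0.60 (0.50 to 0.70) in *SSTL-F* and had an interval of 2.82 to 3.19 in *sstl-s*. API5 was lower at LpM in both genotypes, with -0.82 (-0.96 to -0.69) and -0.53 (-0.68 to -0.38).

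**Figure D5:**
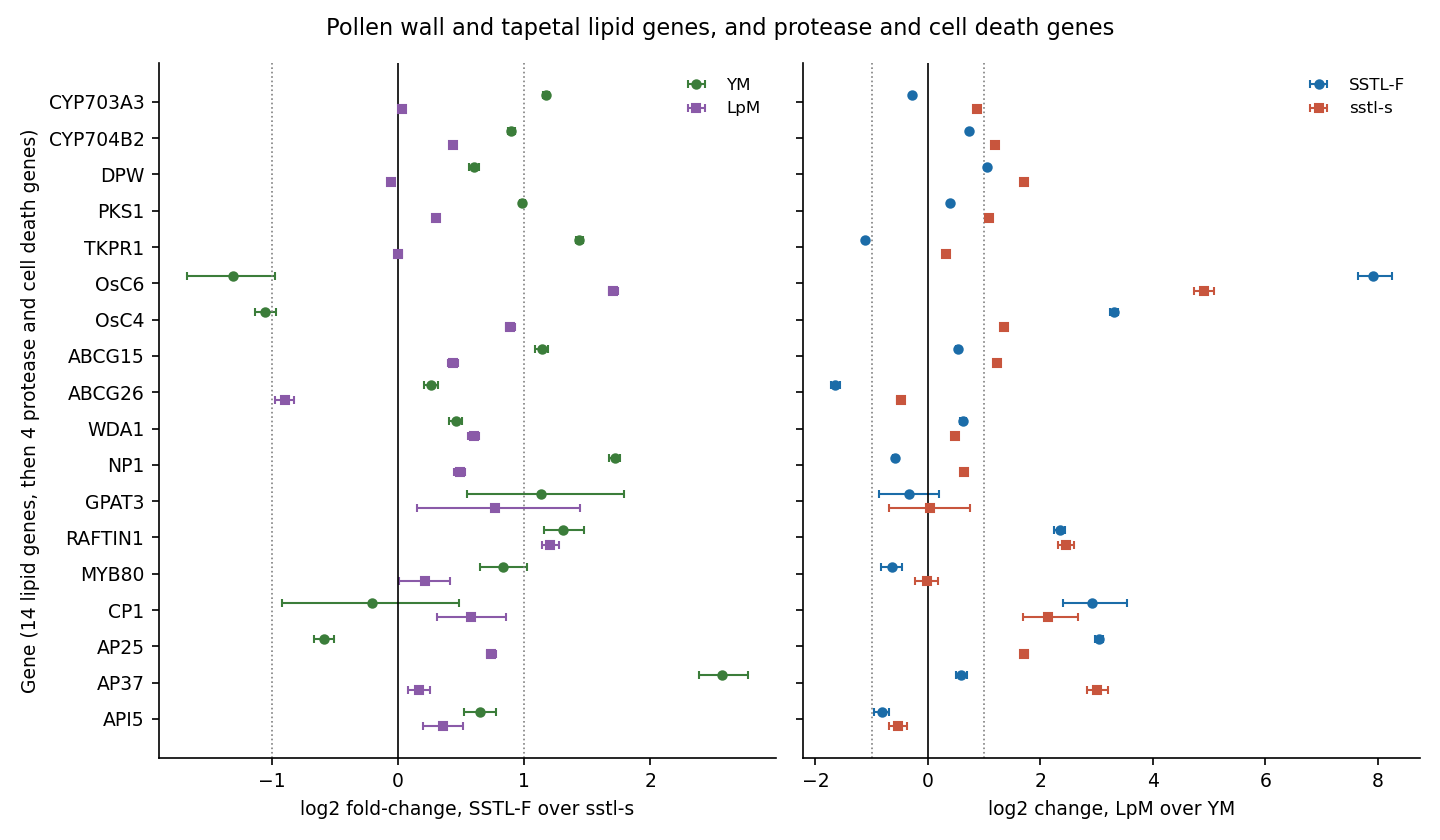
Log2 ratio of *SSTL-F* to *sstl-s* (left panel, YM as circles and LpM as squares) and log2 ratio of LpM to YM (right panel, *SSTL-F* as circles and *sstl-s* as squares) for 14 lipid genes and 4 protease and cell death genes (vertical axis). Bars are 95% counting intervals and dotted lines mark 2-fold. OsC6, OsC4 and AP25 lie below 0 at YM and above 0 at LpM in the left panel.

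Markers of other tissues were looked at in the same libraries, since whole anthers were used. The 3 chlorophyll a/b binding genes, markers of green tissue, summed to 101 CPM at YM and 288 at LpM in *SSTL-F*, and to 180.5 and 467 CPM in *sstl-s*. They were higher in *sstl-s* at both stages, with median genotype differences of -1.03 and -0.76, and higher at LpM in both genotypes. Of the 5 pollen genes, 1 had no read in any library and 3 passed the count filter. These 3 did not share a pattern over the stages. Os09g0381400 was at 8.86 CPM at YM and 162 at LpM in *SSTL-F*, and at 4.51 and 47.7 CPM in *sstl-s*. Os09g0388400 was at 77.5 and 34.5 CPM in *SSTL-F* and at 4.92 and 2.94 in *sstl-s*, and SF21 stayed between 37.2 and 43.0 CPM. The authors had already reported Os09g0381400 and Os09g0388400 from these same libraries as higher in *SSTL-F*. Their higher *SSTL-F* levels are thus not independent of that earlier result. For SF21 the counting interval of the genotype difference included 0 at each stage, around -0.06 (YM) and 0.16 (LpM). The part of these tissues in the levels of the regulators was not tested.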

How the data were processed

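RNA of rice anthers was sequenced by the authors as single-end reads on an Illumina HiSeq 2000 and processed with CLC Genomics Workbench and the RAP-DB gene models. Mapping settings are not given in the sources used here. For each library the authors deposited the read count of each gene, with RPKM and TPM columns made from the counts by the authors. The CPM column the authors deposited is treated as a score, since its total differs between libraries, and was not used. The deposited rows pair only in part with RAP-DB identifiers, so genes were matched by name, by the identifiers of neighbouring rows or by RefSeq synonyms (assembly ASM3414082v1), and sequences and coordinates were not used here.

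Libraries were grouped by their titles. The counts of the 4 libraries were normalized by TMM (edgeR 4.0.16, R 4.3.3), and log2 values used a prior count of 1. With 1 library per group no model was fitted. Each difference carries a 95% Clopper-Pearson interval (exact) of the split of the reads between 2 libraries, and each plotted level an exact Poisson interval. A difference of stage changes carries a conditional exact interval of the odds ratio, except that of TDR. TDR had larger counts, and its interval is the approximate Woolf interval of the log odds ratio. No molecular identifiers were used, and these intervals and the floor of 3 counts leave out all but counting error. Genes that reached 10 counts in some library were kept, and a difference of 2-fold is named as such. These steps were tested on simulated counts. Ratios between genes used the deposited TPM values. As alternatives, the counts were scaled by library size or by DESeq2 1.42.0 size factors, the prior count was set to 0.25 or 5, the deposited RPKM and TPM columns were used as log2(value + 1), and the count filter was dropped or set to 50. Further tools were Python 3.11.15, scipy 1.17.1, numpy 2.4.6, matplotlib 3.10.9 and pandas 2.3.3.

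All 10 genes found by the name rule are given, with the 3 named genes nearest in pattern to each of them that reached 50 counts. For the 4 lists around them, all matched genes were counted, and values are given for those past 2-fold in a comparison and at the ends of a list's range. The genes and lists were chosen with earlier results of these data known. TMS10, ACOS12, ZEP1 and REC8 were not matched and are not analysed here. Reads shared by near-identical genes, such as those of the P450, MYB and F-box families, could have been split by the counting.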

Additional observations from a re-analysis of the deposited data

Results flagged for a closer look

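For 4 genes the counting interval of the genotype difference, the log2 ratio of *SSTL-F* to *sstl-s*, lay above 0 at YM and below 0 at LpM. The values at YM and LpM were 0.15 and -1.28 for TIP2, 0.25 and -2.48 for MTR1, 0.59 and -0.059 for TDR, and 0.20 and -0.23 for GAMYB-LIKE 1. This pattern of intervals hung on the scaling. With library size only the YM intervals of TIP2, MTR1 and GAMYB-LIKE 1 included 0, at 0.002, 0.103 and 0.052, and the pattern was left for TDR. With DESeq2 size factors the YM intervals of TIP2 and GAMYB-LIKE 1 and the LpM interval of TDR included 0, and it was left for MTR1. The YM value of TIP2 was -0.03 with the deposited RPKM values. With 1 library per group and stage, the difference between the stages was not tested against the spread of plants or RNA preparations. The LpM value was past 2-fold for TIP2 and MTR1 and less than 0.25 from 0 for TDR and GAMYB-LIKE 1.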

How the results depend on the processing

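No paired analysis was possible because each group has 1 library, and for the same reason no library could be left out. Under the 6 alternatives for scaling, prior count and unit, the median genotype difference of the 9 genes kept its sign, ranging at YM from 0.019 to 0.196 and at LpM from -0.29 to -0.039. The counts of the 9 genes past 2-fold in a genotype or stage comparison, and the genes themselves, were the same. Of 270 values of single genes, 19 moved by more than the half-width of their counting interval. Of 78 values past 2-fold, 77 remained past it. The exception was the difference of stage changes of GAMYB-LIKE 2, 1.18, which was 0.93 with the RPKM column. In 10 cases a value close to 0 took the other sign, as for TIP2 at YM, 0.15, which was -0.03 with RPKM. The median of all genes shifted by -0.14 at YM with library size only, and by -0.14 at YM and -0.18 at LpM with RPKM. TDR and EAT1 at YM were then 0.44 and 0.67 with library size only, and TDR at LpM was -0.29 with RPKM. When 50 counts were required, the share of all genes past 2-fold was 7.39% in place of 12.4% at YM, 6.78% in place of 11.0% at LpM and 7.51% in place of 11.9% between stages in *sstl-s*. The counting interval at YM lay above 0 for 6 of the 9 genes, for 3 with library size only and for 4 with DESeq2 size factors. Depth limits UDT1, PTC1, DTM1 and, at YM, GAMYB-LIKE 2.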
